A study of Mus musculus with 4 samples.

Results

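The regions described here are 22463 peaks of the oocyte linker histone H1foo that lay deep inside protein-coding genes and had no counterpart in the AE4 list. They were taken from a list of H1foo peaks in mouse embryonic stem cells. A peak was included if it lay on chromosomes 1 to 19, shared no base with any AE4 peak, and had its centre inside a RefSeq protein-coding gene more than 10 kb from every protein-coding gene boundary. A boundary is the first or last base of a gene. The full H1foo list held 97825 peaks, of which 97617 were on the autosomes, so these peaks were 23.0% of the autosomal list. The regions were thus chosen by both peak lists and the gene boundaries, and their number, their lack of AE4 overlap and their placement inside genes are therefore descriptions.

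Linker histones sit where DNA enters and leaves the nucleosome, and help to fold the nucleosome fibre. H1foo, the oocyte variant, is present in the oocyte and early embryo and is later replaced by somatic variants. Long genes consist mostly of intron sequence, which can carry enhancers, internal start sites and small RNA genes. All 4 libraries came from untreated 129S4/SvJae embryonic stem cells with overexpressed mouse H1foo, as a GFP fusion per the growth protocol. For H1foo, 2 libraries were made with an in-house rabbit polyclonal antibody. The other 2 were made with AE4, a mouse monoclonal sold as an antibody to histone H1, and no label says if it recognises H1foo too. Chromatin was digested with enzymes. The extraction text of the AE4 libraries names the H1foo antibody, and the antibody label was followed here. No library of cells without the transgene was analysed here, and no label says whether the line is a single clone or which promoter drives the transgene. The cell type could not be checked against marker genes, because peak lists hold no expression values.

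The data are 1 peak list per antibody, with no value per library. There was thus no replicate error, no test between the antibodies, and no measured depth. A longer list can also come from a deeper library, so a peak without AE4 overlap is not a measured absence of other H1. All comparisons below describe these lists.

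Some of these peaks covered annotated start sites in the interior of a gene, and the upstream sequence of 4 such starts is given as examples. All printed starts were chosen as extremes of score or CpG count, so they are not typical of their classes. The 250 bases upstream of each start are given 5′ to 3′ on the strand of the gene, from RefSeq on GRCm38.p6, with CpG dinucleotides in capitals. The first 3 belong to the highest-scoring peaks that covered the whole window of an internal start of a protein-coding gene. They are in Agrn, which encodes agrin, a basement membrane proteoglycan (chr4:156186260-156186509, minus strand), Adcy7, which encodes an adenylyl cyclase (chr8:88293954-88294203, plus strand), and Ctnnbip1, which encodes a beta-catenin inhibitor (chr4:149544867-149545116, plus strand). The fourth, in Clybl, which encodes a mitochondrial lyase (chr14:122181444-122181693, plus strand), had the most CpG in its window among the other protein-coding starts covered in this way. The last is the start with the most CpG among those without any deep peak, in Cacna1d, which encodes a voltage-gated calcium channel subunit (chr14:30353487-30353736, minus strand).
Agrn: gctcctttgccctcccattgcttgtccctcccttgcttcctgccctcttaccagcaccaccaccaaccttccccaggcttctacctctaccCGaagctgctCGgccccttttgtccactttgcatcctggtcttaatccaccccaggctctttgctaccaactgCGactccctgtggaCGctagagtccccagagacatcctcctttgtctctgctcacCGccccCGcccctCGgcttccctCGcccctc
Adcy7: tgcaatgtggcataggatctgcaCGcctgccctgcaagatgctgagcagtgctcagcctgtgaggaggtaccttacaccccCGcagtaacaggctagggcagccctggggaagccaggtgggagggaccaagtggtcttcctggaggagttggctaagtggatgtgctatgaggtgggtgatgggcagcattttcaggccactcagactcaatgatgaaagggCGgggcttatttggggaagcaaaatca
Ctnnbip1: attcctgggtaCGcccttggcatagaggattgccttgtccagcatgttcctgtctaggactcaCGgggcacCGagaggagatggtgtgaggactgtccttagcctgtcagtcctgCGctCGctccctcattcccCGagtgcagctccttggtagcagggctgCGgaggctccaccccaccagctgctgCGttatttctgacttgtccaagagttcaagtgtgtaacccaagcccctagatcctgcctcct
Clybl: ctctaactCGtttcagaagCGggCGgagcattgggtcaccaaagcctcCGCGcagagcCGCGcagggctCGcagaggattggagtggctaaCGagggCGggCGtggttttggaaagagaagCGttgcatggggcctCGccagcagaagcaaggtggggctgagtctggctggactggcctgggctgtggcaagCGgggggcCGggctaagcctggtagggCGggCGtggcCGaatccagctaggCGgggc
Cacna1d, no deep peak: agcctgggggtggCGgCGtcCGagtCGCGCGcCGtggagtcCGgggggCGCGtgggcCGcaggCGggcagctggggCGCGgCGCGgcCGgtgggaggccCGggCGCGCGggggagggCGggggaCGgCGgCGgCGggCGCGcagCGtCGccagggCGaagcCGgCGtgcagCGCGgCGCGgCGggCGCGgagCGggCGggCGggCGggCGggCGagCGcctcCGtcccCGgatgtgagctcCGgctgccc
The stretches in Agrn, Adcy7 and Ctnnbip1 held 8, 3 and 8 CpG at a GC content of 60.8%, 56.4% and 58.0%. The Clybl stretch held 19 CpG at 66.4% GC, and the Cacna1d stretch held 50 at 86.4%. The high values in Cacna1d do not describe the starts without a deep peak. In the start windows described below, these had medians of 48.3% GC and 4 CpG. Windows with an H1foo-only peak had medians of 54.3% GC and 6 CpG. The peaks at the first 3 starts had scores of 295.45, 239.2 and 226.6, and the Clybl peak had a score of 84.8. The start sites in Agrn, Adcy7, Ctnnbip1 and Clybl lay 11.3, 22.01, 21.3 and 10.7 kb from the nearest gene boundary, and that in Cacna1d lay 126 kb from it.

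Deep gene sequence, meaning all autosomal sequence inside genes and more than 10 kb from every boundary, came to 702.2 Mb or 71.4% of the 984.1 Mb within protein-coding genes. It held 32.0 H1foo-only peaks per Mb, against 9.79 H1foo peaks per Mb that overlapped an AE4 peak (6873 shared peaks) and 10.9 AE4-only peaks per Mb (7673 peaks). H1foo-only peaks covered 1.85% of deep sequence, shared H1foo peaks 0.805% and AE4-only peaks 0.493%. Among all deep H1foo peaks, 76.6% lacked an AE4 overlap. Over all autosomal H1foo peaks this share was 75.9%, so the share deep inside genes was close to that of the whole list. It was 79.5% between genes and more than 2 kb from a boundary, 76.4% within 2 kb of a boundary, and 70.3% inside genes at 2 to 10 kb from a boundary. On the AE4 side, 52.2% of deep peaks lacked an H1foo overlap. This share was 60.6% between genes, 37.5% inside genes at 2 to 10 kb from a boundary, and 31.7% within 2 kb of one.

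The H1foo-only deep peaks were modest in score and width. The score is the authors' value from the peak caller, and its lowest value was 50 in both lists. The median score was 67.1 with an interquartile range of 56.8 to 87.1, while shared deep H1foo peaks had a median of 91.5 (67.3 to 140.9). A score of at least 100 was reached by 16.9% of the H1foo-only and 44.3% of the shared peaks. With this score as a limit there were 5.39 H1foo-only peaks per Mb, and 17.8% of genes with deep sequence held one. The median width was 511 bp (421 to 662 bp) against 671 bp (508 to 959 bp), and 55 H1foo-only peaks were 2 kb wide or more, against 241 shared ones. H1foo-only peaks elsewhere on the autosomes had a median score of 69.3 and a median width of 537 bp. The unshared share fell from 89.3% in the lowest decile of score to 42.3% in the highest, and from 90.2% of peaks up to 400 bp to 38.3% of peaks over 1200 bp. Score and width rose together, with a median width of 417 bp in the lowest and 1192 bp in the highest decile of score. Sharing needed only 1 bp in common, which a wide peak meets more easily than a narrow one. The part of this rule in both falls was not tested.

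**Figure D1:**
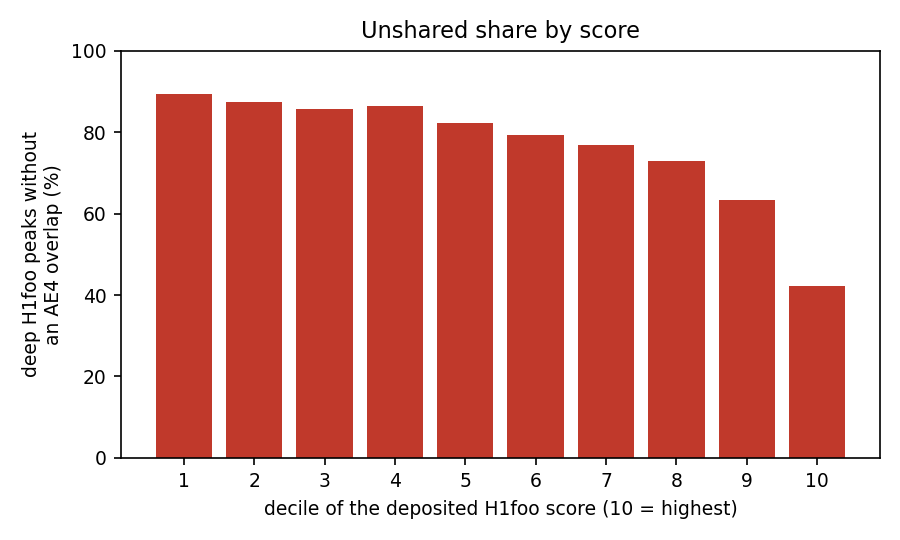
Share of deep H1foo peaks without an AE4 overlap (y axis, percent) in each decile of the deposited H1foo score (x axis, decile 10 highest, 2933 or 2934 peaks each); there are no error bars because the list has no replicate values. The share goes from 89.3% in decile 1 to 42.3% in decile 10.

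At the limits of the rule, 617 H1foo-only peaks lay up to 500 bp beyond the distance of 10 kb and 632 inside genes up to 500 bp short of it, with median scores of 71.6 and 68.6. There were 414 deep peaks with a gap of under 100 bp to an AE4 peak, with a median score of 73.7. Another 203 deep H1foo peaks shared 1 to 100 bp with one and were left out, with a median score of 76.3. The median gap from an H1foo-only deep peak to the nearest AE4 peak was 4872 bp, with quartiles of 1592 and 14255 bp. The gap was under 1 kb for 3918 peaks (17.4%) and over 100 kb for 645 (2.87%). The nearest other peak of the same class was closer, at a median of 2569 bp, and 29.6% had one within 1 kb. Shared deep H1foo peaks lay at a median of 3675 bp from their own kind, and 28.7% had one within 1 kb. Close spacing was thus not limited to H1foo-only peaks. For AE4-only deep peaks the median distance to their own kind was 17057 bp.

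Pooled over genes of all lengths, H1foo-only peaks were sparser at greater depth inside genes. Their density was 58.6 per Mb at 10 to 20 kb from the nearest boundary, 41.3 at 20 to 50 kb, 24.6 at 50 to 100 kb, 11.8 at 100 to 200 kb and 3.73 beyond 200 kb. Shared peaks fell more steeply, from 20.5 to 0.565 per Mb, and AE4-only peaks less, from 17.9 to 2.62 per Mb. The number of H1foo-only peaks per AE4-only peak was thus 3.28 in the outermost zone and 1.42 in the innermost. The outermost zone held 20.8% of deep sequence and 38.2% of the H1foo-only peaks, and the innermost 13.1% and 1.53%. These zones mix gene lengths, since a short gene has no sequence far from its boundaries. In 1772 genes of at least 100 kb with known strand, the density changed less. On the 5′ side it was 35.5 per Mb at 10 to 20 kb from the end and 32.1 at 40 to 50 kb. On the 3′ side it was 43.5 and 39.1. The parts of depth and gene length were not separated. The peak farthest from any boundary lay in Cntnap2, a neuronal adhesion gene, 1013 kb from the nearest boundary on chromosome 6 (46287703 to 46288262, score 86.6).

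Density also fell with the length of the host gene. It was 74.7 per Mb in genes of 20 to 50 kb, 57.5 at 50 to 100 kb, 41.3 at 100 to 200 kb, 21.3 at 200 to 500 kb, 7.45 at 500 to 1000 kb and 2.41 in genes over 1000 kb. The shortest class was 31.0 times as dense as the longest for H1foo-only peaks, 86.6 times for shared peaks and 9.57 times for AE4-only peaks. The size of this gradient depended on the score. Genes under 100 kb were 11.7 times as dense in H1foo-only peaks as genes of 500 kb or more, and 23.7 times with a score of at least 100. In the 55 genes over 1000 kb, 173 H1foo-only peaks stood beside 160 AE4-only peaks, at 2.41 and 2.23 per Mb.

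**Figure D2:**
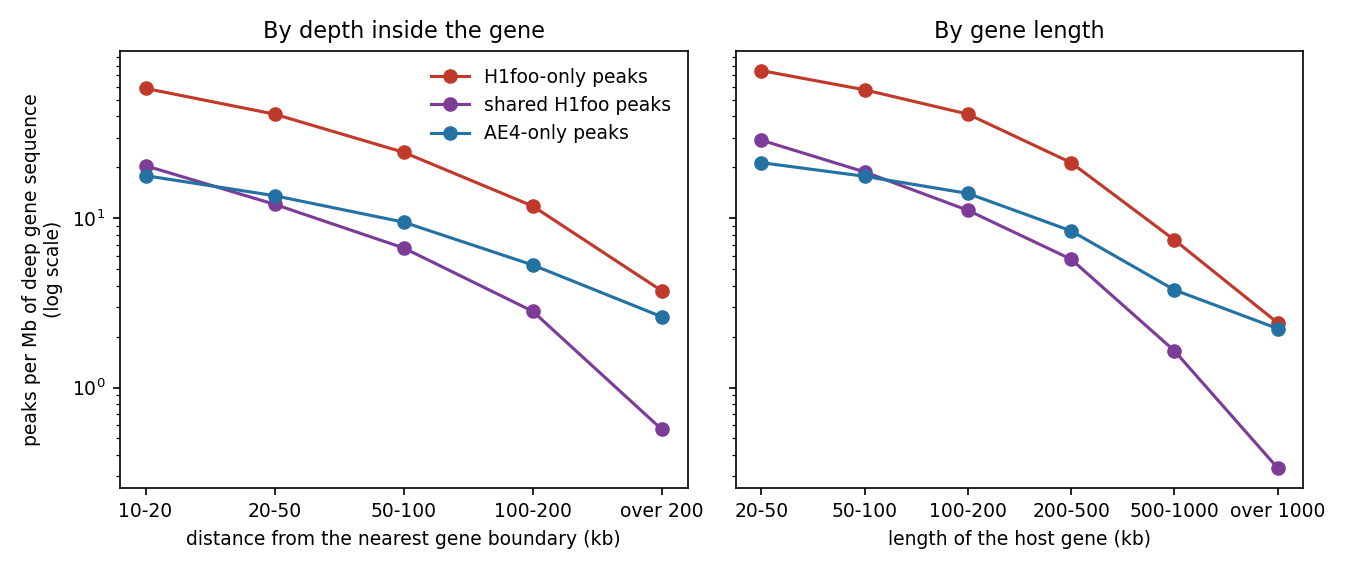
Peaks per Mb of deep gene sequence (y axes, log scale) by distance from the nearest gene boundary (left) and by length of the host gene (right), for H1foo-only, shared H1foo and AE4-only peaks; points are values over all deep sequence of a class, without error bars because there are no replicates. H1foo-only density goes from 58.6 to 3.73 per Mb with depth and from 74.7 to 2.41 per Mb with gene length, where it comes close to the AE4-only density of 2.23.

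Neighbourhood varied along with length. In bins of 1 Mb with 0 to 2 protein-coding genes the density was 5.05 H1foo-only peaks per Mb of deep sequence, in bins with 6 to 10 genes 32.2, and in bins with more than 20 genes 92.9. These gene-dense bins held 7.20% of deep sequence and 20.9% of the peaks. Within bins of 0 to 5 genes the density was 26.3 per Mb in genes of 20 to 100 kb and 4.63 in genes of 500 kb or more. Within bins of 16 or more genes it was 98.8 and 16.8, the latter from 36 peaks. Both gradients were therefore present within these broad classes of the other. The classes do not hold gene number fixed. Bins of 0 to 2 genes were at 5.05 per Mb and bins of 3 to 5 genes at 17.8. Length and neighbourhood were thus not fully separated. Across 1458 bins with at least 200 kb of deep sequence, Spearman's rho was 0.84 between the densities of H1foo-only and AE4-only peaks and 0.83 between those of H1foo-only and shared peaks. Bins share their sequence and neighbourhood, so these are descriptions without a test. The rule fixes that H1foo-only and AE4 peaks do not overlap within these bins.

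Chromosomes 11 and 8 had the most H1foo-only peaks per Mb of deep sequence, at 57.4 and 54.7, followed by chromosome 4 at 47.4. The lowest were chromosomes 13 (17.8), 14 (16.9) and 6 (15.7). Chromosome 8 stood apart in the makeup of its peaks. It had 43.1 shared peaks per Mb, 6.37 times the median of 6.77 over the other 18 autosomes, while its H1foo-only density was 2.02 times and its AE4-only density 2.43 times their median. As a result 55.9% of its deep H1foo peaks were unshared, against 76.1 to 86.3% on the other autosomes. Differences between chromosomes in copy number or read depth were not measured here.

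**Figure D3:**
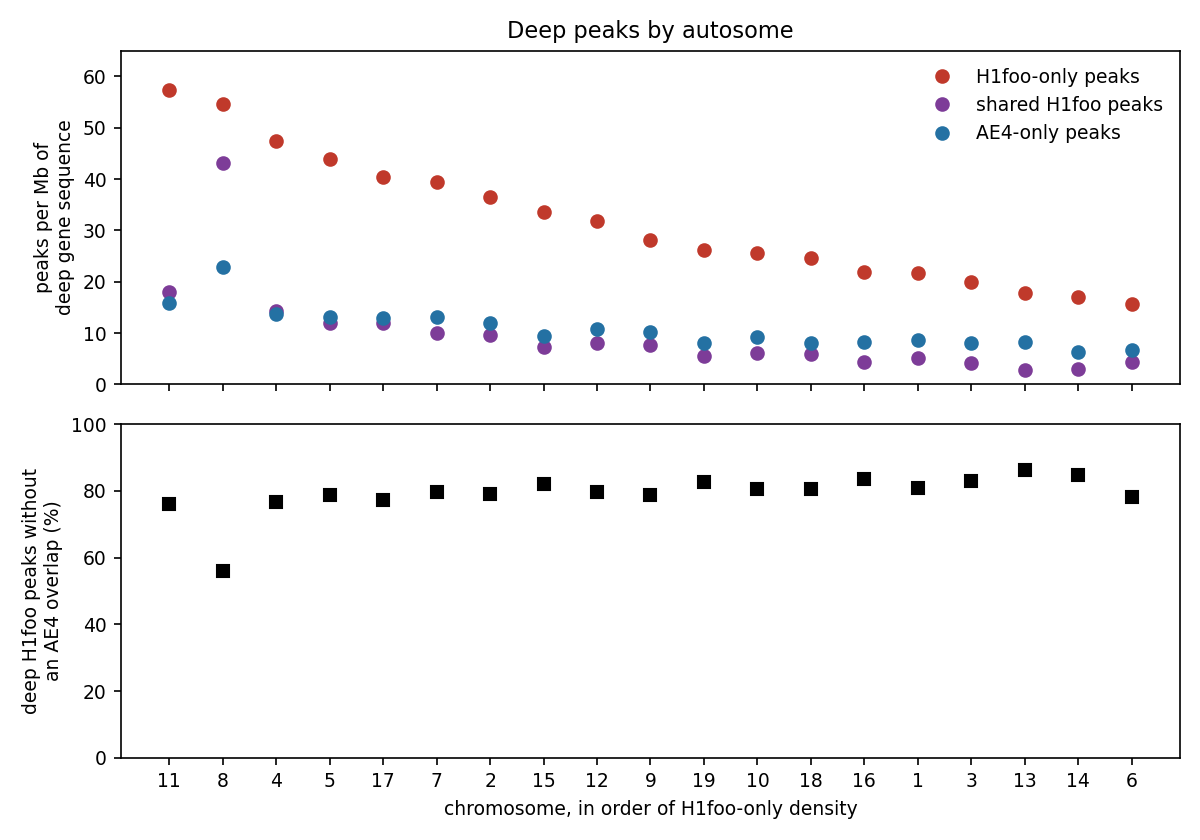
Deep peaks per Mb of deep gene sequence (top) and percent of deep H1foo peaks without an AE4 overlap (bottom) for each of the 19 autosomes, in order of H1foo-only density (x axis); there are no error bars because there are no replicates. Chromosome 8 comes after chromosome 11 in H1foo-only density at 54.7 per Mb, has 43.1 shared peaks per Mb, and has the lowest unshared share at 55.9%.

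Both ends of a gene were compared. In 1772 genes of at least 100 kb whose strand the promoter table gave, the density at 10 to 20 kb from the end was 43.5 H1foo-only peaks per Mb on the 3′ side (750 peaks) and 35.5 on the 5′ side (612 peaks). At 40 to 50 kb it was 39.1 and 32.1. Shared peaks were at 12.8 and 9.21 per Mb at 10 to 20 kb, and at 7.99 and 9.54 at 40 to 50 kb, so for them the order turned. AE4-only peaks were at 16.6 and 13.6, and at 11.4 per Mb on both sides at 40 to 50 kb. H1foo-only peaks were thus denser toward the 3′ end in each of the 4 zones of 10 kb between 10 and 50 kb. AE4-only peaks were also denser on the 3′ side in each zone between 10 and 40 kb, with 11.4 and 9.17 per Mb at 30 to 40 kb. The higher density toward the 3′ end was therefore not limited to H1foo-only peaks.

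Start sites inside genes were denser in H1foo-only peaks than the rest of deep sequence. The promoter table, which holds no starts on chromosome 18 and is not complete, gave 3150 distinct start sites in deep sequence, 1419 of protein-coding genes and 1731 of long noncoding RNAs. Within 500 bp of such a start there were 103.5 H1foo-only peaks per Mb, at 2 to 5 kb 64.1, and more than 50 kb away 26.9. Shared peaks were at 30.3, 21.7 and 8.23 per Mb and AE4-only peaks at 16.9, 16.9 and 9.96. Only 1.35% of the peaks on these 18 chromosomes had their centre within 500 bp of a deep start, and 64.8% were over 50 kb from one. The window of 300 bases around the start, 250 before and 50 after, met an H1foo-only peak at 308 starts (9.78%), which shared 277 peaks, since neighbouring starts can lie under the same peak. By kind, 10.9% of protein-coding and 8.84% of long noncoding RNA starts met one.

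Start windows with a peak differed in base composition from those without. Windows with an H1foo-only peak had a median GC content of 54.3% (interquartile range 50.7 to 58.1%) and those without a deep peak 48.3% (43.7 to 54.3%). The median was 56.3% in windows with a shared peak and 52.3% in windows with an AE4-only peak. A higher GC content was thus not particular to H1foo-only peaks. The share of windows with an H1foo-only peak was 2.51% at a GC content up to 40% (exact binomial 95% interval 1.15 to 4.71%). It reached 22.5% at over 55 and up to 60% GC (18.4 to 27.1%) and was 8.58% above 65% GC (5.52 to 12.6%). For shared peaks the share was 0.279%, 13.7% and 0.746% in the same classes. By CpG count, 18.8% of windows with 11 to 15 CpG met an H1foo-only peak (13.5 to 25%). In the 286 windows with more than 20 CpG, 21 met an H1foo-only peak (7.34%, 4.60 to 11.01%), 2 a shared peak (0.699%, 0.0848 to 2.50%) and 0 an AE4-only peak (upper limit 1.28%). The intervals cover counting error only, and starts that share a peak are not independent. The Cacna1d start shown above belongs to this CpG-rich class without a peak, and the Clybl start, with 26 CpG in its window of 300 bases, to the 21 with an H1foo-only peak.

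**Figure D4:**
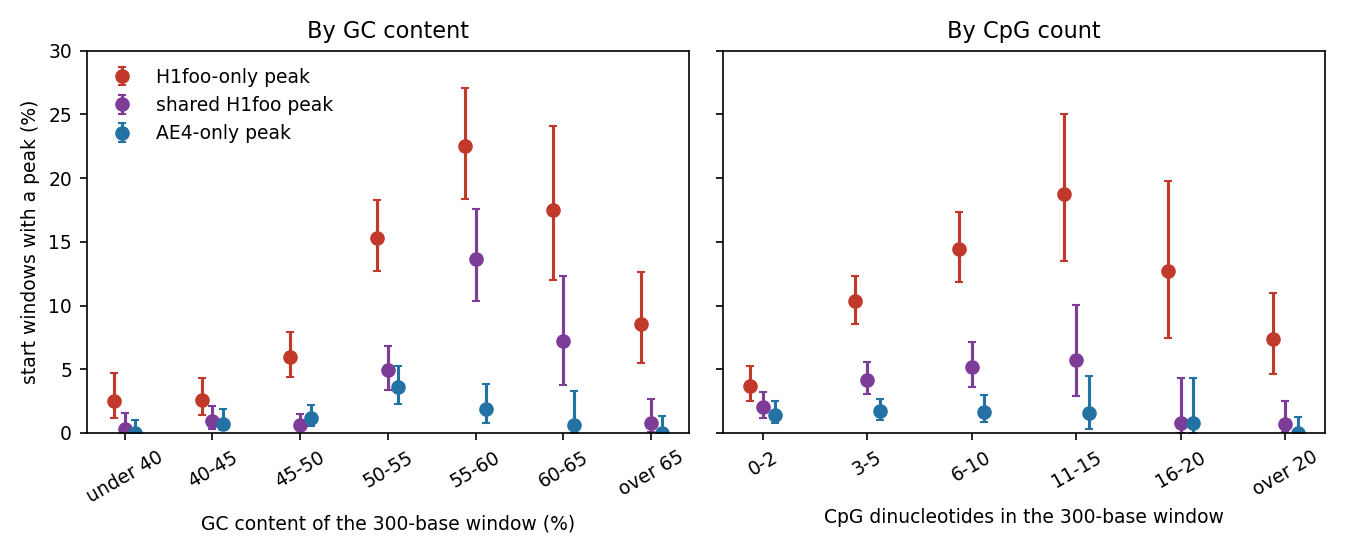
Percent of annotated start windows in deep gene sequence that meet an H1foo-only, shared H1foo or AE4-only peak (y axis), by GC content (left) and CpG count (right) of the 300-base window; bars are exact binomial 95% intervals, which cover counting error only. H1foo-only values reach 22.5% at over 55 and up to 60% GC and 18.8% at 11 to 15 CpG, and are lower at both ends of each axis.

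MicroRNA hairpins in deep sequence also met H1foo-only peaks. MicroRNAs are small RNAs that bind messenger RNAs through a seed at bases 2 to 8 and lower their output. Of 224 hairpins in deep sequence, 16 (7.14%) overlapped an H1foo-only peak, 9 (4.02%) a shared peak and 2 (0.893%) an AE4-only peak. These classes covered 1.85%, 0.805% and 0.493% of deep sequence. A hairpin meets a peak more easily than a single base does, so the shares and the coverage are unlike measures. Overlap with hairpins was not particular to H1foo-only peaks. Of the 16 hairpins, 14 lay wholly inside the peak. The mature products of 4 well-studied hairpins and of the one under the highest-scoring peak are given with the seed in capitals, and were chosen after their values were seen.
miR-1936: uAACUGACcugcugugaacuggc
miR-26a-5p: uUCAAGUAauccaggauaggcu
miR-199a-5p: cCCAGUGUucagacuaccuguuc
miR-199a-3p: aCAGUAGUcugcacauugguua
miR-194-5p: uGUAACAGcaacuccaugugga
miR-127-3p: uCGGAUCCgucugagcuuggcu
Mir1936, in the inositol kinase gene Itpk1 on chromosome 12, lay under a peak with a score of 358.8. Mir26a-1, in Ctdspl on chromosome 9, was met only in part by a peak at 119031870 to 119032889 with a score of 174.5. The hairpin spans 119031796 to 119031885 on the plus strand, so the peak reached only its 3′ end. The printed miR-26a-5p comes from the 5′ arm, outside the peak. Mir199a-1 lies on the strand opposite to Dnm2, the gene of dynamin 2, on chromosome 9 (score 67.3). Mir194-1 lies opposite to Iars2 on chromosome 1 (score 62.9). Mir127 lies within the span of the imprinted gene Rtl1 on chromosome 12 (score 51.9), and the strand of Rtl1 was not known here. The last 3 scores were low in a list that starts at 50. The 28 mature products of the 16 hairpins had 28 different seeds, so no seed was shared among them.

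By gene, 9425 of 20665 autosomal protein-coding genes had deep sequence and 4824 of these (51.2%) held at least 1 H1foo-only deep peak. Of the 4824 genes, 1682 held 1 peak and 567 held 10 or more, and these 567 genes held 47.2% of the peaks. Only 95 peaks lay in more than 1 gene. Genes with an H1foo-only peak and no AE4 peak anywhere in the gene numbered 867, or 9.2% of genes with deep sequence. They were 17.97% of the 4824 genes with an H1foo-only deep peak. The share without an AE4 peak among all genes with deep sequence is not given here. It can thus not be said if 867 is many or few. In genes with at least 20 kb of deep sequence, 63.3% held a peak, and the median density was 1.61 per 100 kb with an interquartile range of 0 to 6.30.

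The gene with the most H1foo-only deep peaks was Msi2, which encodes an RNA-binding protein of stem cells, with 78 peaks in 358.9 kb of deep sequence on chromosome 11 (21.7 per 100 kb). It also held 26 shared and 9 AE4-only peaks. The zinc finger genes Zfhx3 and Zfp423 on chromosome 8 followed with 69 and 68, the cadherin gene Cdh4 with 66, and Wwox, which spans a common fragile site, with 66. The other 5 of the first 10 were the neuronal migration gene Nav2 (57), the calcium channel gene Cacna1a (55), Camta1 (55), Ctif (55) and the spindle checkpoint gene Mad1l1 (54), which tied with Septin9, Sh3pxd2a and Tiam1 and came first by alphabet. The makeup of peaks differed between these genes. In Camta1 and Nav2, 88.7% and 86.4% of deep H1foo peaks were unshared, while in Zfp423 and Cacna1a, both on chromosome 8, the shares were 52.7% and 52.4%. Wwox, also on chromosome 8, stood out with 44 AE4-only peaks beside its 66.

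The densest genes with at least 50 kb of deep sequence and 5 such peaks were shorter. Cdc42bpb, which encodes a kinase of the cytoskeleton on chromosome 12 (111292972 to 111379313), led with 29 peaks in 66.3 kb, or 43.7 per 100 kb, beside 2 shared and 3 AE4-only peaks. Dnah17, a dynein heavy chain gene (39.2), Arhgap23 (39.0), the septin gene Septin9 (37.9), Zfp516 (37.0), Ccdc85c (36.9), Kazn (36.7), the H3K9 demethylase gene Kdm4b (36.3), Prrc2b (36.2) and the transcription factor gene Casz1 (36.0) followed. In these 10 genes between 60% (Kdm4b) and 93.5% (Cdc42bpb) of deep H1foo peaks were unshared. The window of 100 kb with the most peaks lay in Septin9 on chromosome 11 (117200001 to 117300000), with 38 H1foo-only, 11 shared and 5 AE4-only peaks.

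The highest counts of H1foo-only peaks in genes without any AE4 peak were lower than over all genes. Counts of H1foo-only and AE4-only peaks rose together over genes (Spearman's rho 0.59, 3345 genes). This choice of genes thus tends to leave out peak-rich ones, and the lower counts are a description. The first were Agtpbp1, which encodes a deglutamylase of tubulin, with 12 peaks, and the neural splicing factor gene Srrm4 with 10. Jade1, Mast4 and Ttc39b had 9 each, and Abat, Arhgap22, Dennd2c, Elmo1 and Mreg 8 each. Pax7 and Trim71 also had 8, and the order among genes tied at 8 was alphabetical. In the first 10 genes the highest scores ran from 61.7 in Srrm4 to 174.9 in Dennd2c. The densest of them was Mreg at 24.2 per 100 kb.

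The genes with the most deep sequence had next to none of these peaks. Ptprd, with 2250 kb of deep sequence, held 3, Cntnap2 8, Lsamp 3, Lrp1b 1, Macrod2 3, Nrxn3 2, Csmd1 2 and Robo2 1, and Dlg2 and Fhit held 0. Most of these encode adhesion or synaptic proteins of neurons. The same 10 genes held 1 to 5 AE4-only peaks each. The genes with the most deep sequence and no H1foo peak at all were Dlg2 (1953 kb), Rbfox1 (1508 kb), Dpp10 (1494 kb), Gpc5 (1413 kb) and Cntn5 (1251 kb), and each of these held between 1 and 5 AE4 peaks.

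The highest-scoring H1foo-only deep peak lay in Elfn1, a synaptic organiser gene, at 139930048 to 139934118 of chromosome 5, with a score of 724.6 and a width of 4071 bp, 24.5 kb from the nearest boundary and 2291 bp from the nearest AE4 peak. The next were in Sema4b, a semaphorin gene (chromosome 7, 80205580 to 80208553, score 532.5), Sulf2, an extracellular sulfatase gene (493.4), the calcium sensor gene Ncs1 (466.3), Gm572 (456.0), the paxillin gene Pxn (455.8), the plakoglobin gene Jup (453.2), Gdpd5 (452.7), Cpne5 (435.7) and Prex1 (431.4). These 10 peaks were 2118 to 4071 bp wide. All of them were over the 90th percentile of the class, at 118.4. The Sema4b peak came within 207 bp of an AE4 peak and the Gdpd5 peak lay 8236 bp from the nearest.

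Gene groups differed in their density of H1foo-only peaks. Counts below are of genes with at least 20 kb of deep sequence, of which 63.3% in all held a peak, at a median of 1.61 per 100 kb and a median of 9 genes in the surrounding bin of 1 Mb. No test was made, and the part of gene length and neighbourhood in these values was not tested.

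Genes of the stem cell state were above that median. All 5 pluripotency regulators with this much deep sequence held peaks, at a median of 16.1 per 100 kb with 12 genes per bin. Trim71, an RNA-binding repressor of differentiation, had 8 peaks (24.2 per 100 kb) and no AE4 peak in the gene. Esrrb, a nuclear receptor of naive pluripotency, had 33 peaks (23.5), beside 4 shared and 4 AE4-only peaks. Tfcp2l1, another factor of the naive state, had 6 (16.1), Nr5a2 8 (8.17) and Tcf7l1, the repressor of the Wnt pathway, 4 (2.80). Nanog, Sox2 and Pou5f1, the core factors of this list, had no deep sequence and so could hold none of these peaks.

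Of the enzymes and readers of DNA methylation, 5 of 7 (71.4%, against 63.3% over all genes) held peaks, at a median of 7.33 with 6 genes per bin. The de novo methyltransferase gene Dnmt3a had 26 peaks (28.0 per 100 kb) and the maintenance enzyme gene Dnmt1 had 7 (21.4). Of the demethylation genes, Tet1 had 6 (9.54) and Tet2 3 (4.88), while Tet3, with 74.8 kb of deep sequence, had 0 H1foo and 0 AE4 peaks in deep sequence. Uhrf2 also had 0.

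Stem cell signalling genes held peaks in 29 of 33 (median 5.14, 13 genes per bin), histone lysine methyltransferases and demethylases in 25 of 30 (4.35, 17 genes per bin), and chromatin remodelling and acetylation genes in 23 of 28 (3.48, 10.5 genes per bin). Notch1, the receptor, had 10 peaks (38.6 per 100 kb), Fgfr1, a receptor for fibroblast growth factors, 12 (32.5), and the Wnt co-receptor gene Lrp5 had 17 (20.8). Among those without one were Smad2 and Smad4. Kdm4b had 21 (36.3), the H3K4 methyltransferase gene Kmt2d 8 (35.7) and the H3K79 methyltransferase gene Dot1l 5 (24.6), while the H3K36 methyltransferase genes Nsd1 and Nsd2 had 0. The histone deacetylase gene Hdac7 had 9 (28.3) and the remodeller gene Bptf 19 (24.0), and Ino80, Smarca2 and Smarcad1 had 0.

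Neuronal and adhesion genes had median densities below the median over all genes. Glutamate and GABA receptor genes held peaks in 13 of 30 (median 0, 3.5 genes per bin). Axon guidance genes held them in 19 of 36 (0.123, 3.5 genes per bin), classical cadherins in 9 of 18 (0.0563, 1 gene per bin), and synaptic adhesion and scaffold genes in 29 of 41 (0.20, 1 gene per bin). Common fragile site genes held them in 13 of 18 (0.147, 1 gene per bin). The share of genes with a peak went the other way in part. It was 70.7% for synaptic adhesion and scaffold genes and 72.2% for fragile site genes, above the 63.3% over all genes. In the other groups named here it was 43.3 to 52.8%. Pooled over all genes of a list with deep sequence, classical cadherins were at 29.2 peaks per Mb, near the 31.9 over all genes. The other groups named here were at 5.12 to 13.1 per Mb. Single genes in these groups were well above the median over all genes. Grik3, a kainate receptor gene, had 48 peaks (23.5 per 100 kb) and the metabotropic receptor gene Grm4 14 (19.6), while Grm3 and Grm5 had 0. The guidance receptor gene Plxnd1 had 9 (43.8) and Ephb2 41 (24.3), while Slit2 and Sema6d had 0. Cdh1, the E-cadherin of stem cells, had 8 (17.1) and Cdh22 25 (24.2), while Cdh7, Cdh8 and Cdh9 had 0. Adgrl1 had 8 (36.6) and the neurexin gene Nrxn2 24 (25.4), while Opcml and Ntm had 0.

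The remaining groups spanned a median of 0 to 1.63 per 100 kb. Voltage-gated channel genes held peaks in 24 of 41 (median 0.716, 8 genes per bin), with 24 in Cacna2d2 (21.9 per 100 kb) and 0 in Scn1a, Scn2a and Scn9a, which are neighbours on chromosome 2. Collagen and basement membrane genes held them in 18 of 36 (0.495, 8.5 genes per bin), with 16 in the laminin gene Lama5 (54.2) and 0 in the laminin genes Lama2 and Lama4. Pooled over its genes with deep sequence, this list was at 33.5 per Mb, against 31.9 over all genes. Lineage regulators held them in 29 of 44 (0.867, 4 genes per bin), with 9 in Runx3 (24.1) and 0 in Zeb1. DNA replication and repair genes held them in 16 of 25 (1.63, 10 genes per bin), with 5 in the Fanconi anaemia gene Fanci (14.7) and 0 in Polq. Germ cell and meiosis genes held them in 5 of 11 (median 0, 15 genes per bin), with 4 in Mei1 (10.9) and 0 in Sycp2, Tdrd1 and Tdrd5.

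**Figure D5:**
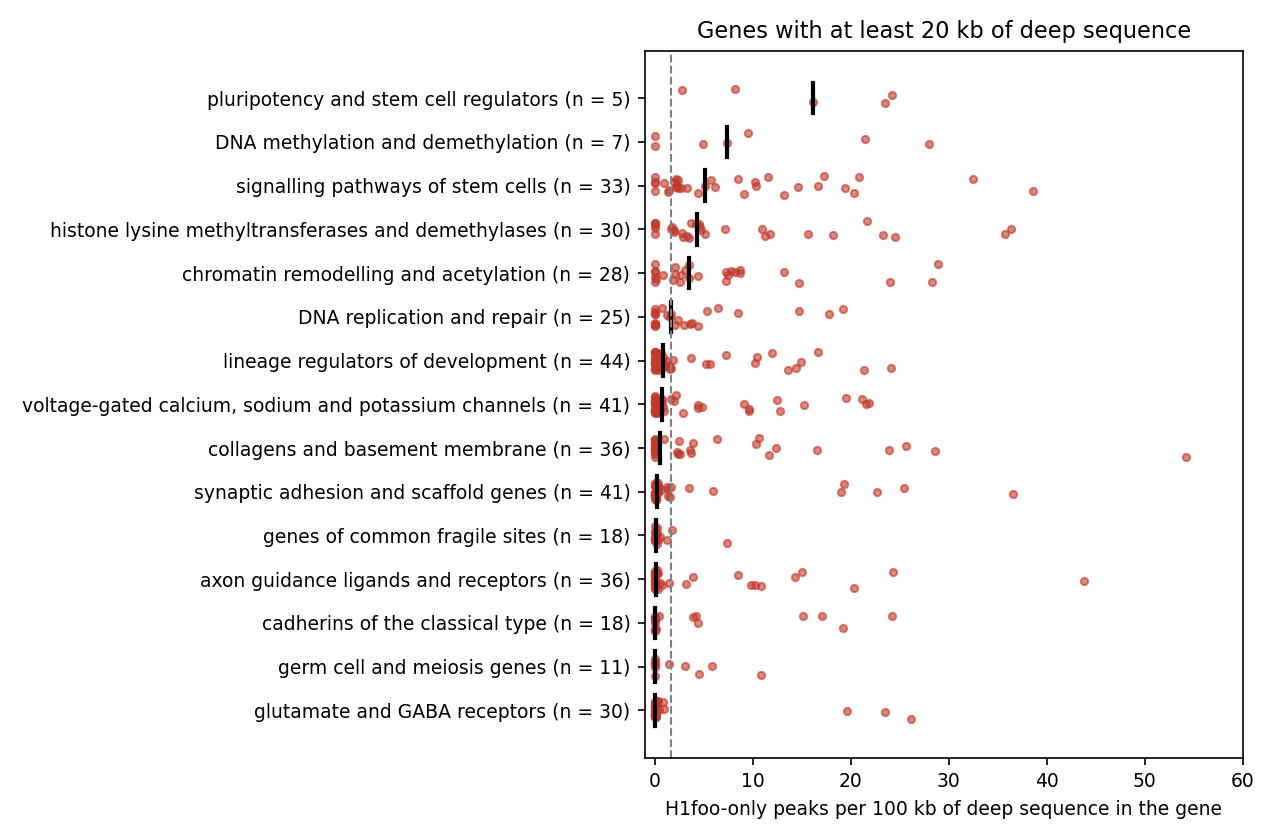
H1foo-only peaks per 100 kb of deep sequence (x axis) for each gene with at least 20 kb of deep sequence in 15 gene lists (y axis, n genes per list); points are genes, black bars list medians, and the dashed line is the median of 1.61 over all 5609 such genes. Medians run from 0 for the receptor and germ cell lists to 16.1 for the 5 pluripotency genes, where no gene is at 0, and the highest gene of the fragile site list, Wwox, is at 7.39.

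The unshared share varied among genes rich in H1foo. In 292 genes with at least 20 deep H1foo peaks the median was 74.7% with an interquartile range of 65.2 to 84.7%. It was under 50% in 22 genes, of which 16 were on chromosome 8. The median was 59.4% over the 48 genes on that chromosome and 76.7% over the others. The ends of this order, named here after their values were seen, were Crtc1 (13.0% of its deep H1foo peaks unshared), the mechanosensitive channel gene Piezo1 (19.0%), Gse1 (21.7%, with 33 H1foo-only and 119 shared peaks), Adcy7 and Wwp2 (33.3% each), all on chromosome 8. At the other end were Rbfox3, a neuronal splicing factor gene (28 H1foo-only and 0 shared peaks), Dnah10 (20 and 0), Mtus2 (28 and 1), Ttc28 (26 and 1) and Atxn7l1 (24 and 1). Rbfox3 and Dnah10 held 7 and 2 AE4-only peaks, so AE4 peaks were present in both genes at other places.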

How the data were processed

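ChIP-seq peak lists of 2 antibodies in mouse embryonic stem cells were used, with 2 libraries per antibody. The submitters' processing notes name Bowtie 1.1.2 and mm10, and per the file headers the peak caller was MACS, without a version. The authors deposited 1 list per antibody with a score per peak, on a scale the files do not name. No label or header says how libraries were combined or if an input was used. Depth is unknown. Starts were converted to positions counted from 1.

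Genes were 20665 autosomal protein-coding spans of RefSeq on GRCm38.p6, whose assembled chromosomes have mm10 coordinates. This table gives no exons, and no genome sequence was used here, so the exon or intron position and base composition of peaks were not analysed. Strand, start windows and hairpins came from RefSeq sequence tables without chromosome 18. Strand was known for 79.1% of genes with deep sequence. An internal start was one over 10 kb from every protein-coding boundary. Densities are peak centres per deep sequence, and distances to starts used a grid of 100 bp. Binomial intervals are exact at 95% (scipy 1.17.1, Python 3.11.15). The code was tested on simulated data.

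No test between groups was possible. The peaks, the 15 gene lists and the alternatives were chosen with earlier results of these data known. Of the listed symbols, 6 had no match among these genes. Some list members are not reported here. Genes named were the 10 with most H1foo-only peaks, the 10 densest, the 10 with most and no AE4 peak, the 10 with most deep sequence, the 5 with most deep sequence and no H1foo peak, the hosts of the 10 highest scores, and up to 3 list members at each end of density. Genes named for start sites, hairpins, windows or the unshared share, and Nanog, Sox2 and Pou5f1, fall outside this rule and were chosen after their values were seen.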

Additional observations from a re-analysis of the deposited data

Results flagged for a closer look

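Chromosome X was outside the rule. It held 24 H1foo-only peaks deep inside genes, in 33.3 Mb of deep sequence, or 0.721 per Mb. This is a signal in data that no comparison above used. The lowest autosome, chromosome 6, had 15.7 per Mb. All 24 deep H1foo peaks of X were without an AE4 overlap. The density of AE4 peaks on X is not given here, so it cannot be said if the low density is particular to H1foo. No label gives the sex or the number of X chromosomes of the line, and their part in this value was not tested.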

How the results depend on the processing

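Of 45 alternative values, 27 moved and 18 did not. A value moved if it left the counting interval of the main value or, for the number of peaks, changed by more than 1.5 times. The intervals treat single peaks or genes as independent, although 29.6% of the peaks had another within 1 kb. They cover counting error only and are narrow, at 76.1 to 77.1% for the unshared share. The counts of 27 and 18 are thus no measure of robustness. The main values were 22463 peaks, 76.6% of deep H1foo peaks unshared, 32.0 per Mb, 51.2% of genes, and a density ratio of 11.7 between genes under 100 kb and genes of 500 kb or more. With a limit of 20 kb from boundaries there were 13884 peaks, 78.2% unshared, 24.98 per Mb and a ratio of 10.7. With 5 kb it was 74.97%, 37.6 per Mb and 12.6. Counting H1foo peaks within 1 kb of an AE4 peak as shared gave 63.2%, 26.4 per Mb, 48.9% of genes and 10.1. Asking for an overlap of 50% of either peak gave 78.1% and 32.6 per Mb. Only H1foo peaks with a score of at least 100 gave 3788 peaks, 55.4%, 5.39 per Mb, 17.8% of genes and 23.7. Only AE4 peaks of at least 100 gave 94.6%, 39.5 per Mb and 53.5% of genes. Peaks of 200 bp gave 83.8%, 34.99 per Mb and 12.6. Without chromosome 8 it was 79.5%, 30.7 per Mb and 14.3. The score limits keep fewer peaks by construction. For the others the cause was not tested. No paired analysis was possible because the lists hold no value per library, and for the same reason no library could be left out. Depth is unknown, so it cannot be said which unshared peaks a deeper AE4 list would meet.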

Other observations

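Spans of long noncoding RNA genes that lie within protein-coding genes made up 4.44% of deep sequence and held 1309 peaks, or 5.83% of the class, at 42.0 per Mb. The same spans held 5.11% of shared and 4.52% of AE4-only deep peaks. Pseudogenes in deep sequence made up 0.325% of it and held 125 H1foo-only peaks (0.556%). Some pseudogenes are near-identical to their parent genes, so that the placement of reads there is uncertain.

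Windows of 100 kb with many H1foo-only peaks came from several chromosomes. After Septin9, windows in Sh3pxd2a on chromosome 19, Rnf220, Grik3 and Kazn on chromosome 4 held 32 peaks each. Casz1 on chromosome 4 held 31. Zmynd8 on chromosome 2, Mcf2l on chromosome 8 and a window over Dnah17 and Pgs1 on chromosome 11 held 30 each. The Mcf2l window also had 17 shared and 9 AE4-only peaks, while a window in Cdc42bpb with 29 H1foo-only peaks had 2 and 3.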
